A study of Mus musculus with 12 samples.

Results

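The IFITM genes encode the interferon-induced transmembrane proteins, and 4 of them were followed across megakaryocytes (MKs) of the bone marrow (BM) and the spleen: Ifitm1, Ifitm2, Ifitm3 and Ifitm6. The 4 genes were matched by symbol to the Ensembl identifiers of the table, which lists 55536 genes. The family was chosen because Ifitm2 stood out between the tissues, so differences between BM and spleen are described here with no test, and tests are given for the response to sepsis, which uses the same 12 libraries. Each tissue had a saline and a sepsis group of 3 libraries, with 300 sorted cells per library, collected 5 days after i.p. cecal slurry (the sepsis groups) or saline. All mice were young adult C57BL/6 animals, of both sexes in the study as a whole, that carried a Pf4-Cre transgene and a Rosa26 tdTomato reporter. Pf4, the gene of platelet factor 4, drives the Cre, and the red label marks every cell whose history includes Pf4 expression. The sort took CD45+ tdTomato+ CD41+ CD42b+ cells that lacked, among other lineage proteins, CD138, B220, CD3, NK1.1, F4/80 and CD11b. The replicates are called independent in the methods of the study, but the sources used here do not say whether each library came from 1 mouse, so p-values measure the spread between these libraries.

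IFITM proteins are small membrane proteins that hold back enveloped viruses as they fuse with the membranes of a cell. IFITM3, the best studied of them, sits in late endosomes and lysosomes and limits influenza virus, IFITM1 is found more at the cell surface, and both type I and type II interferons induce them. Human MKs and platelets make IFITM3, and in mouse embryos Ifitm1 and Ifitm3 are known as markers of early germ cells under the name fragilis. Ifitm6 is a less studied relative.

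The 4 genes lie together on mouse chromosome 7, within 63.1 kb (GRCm38, GENCODE M21). Ifitm2 (ENSMUSG00000060591) spans chr7:140954837-140955987 on the minus strand, Ifitm1 (ENSMUSG00000025491) chr7:140967221-140969825 on the plus strand, Ifitm3 (ENSMUSG00000025492) chr7:141009586-141010770 on the minus strand and Ifitm6 (ENSMUSG00000059108) chr7:141015699-141017924 on the minus strand. Their coding sequences are close copies. Ifitm2 and Ifitm3 were identical at 79.9% of aligned coding bases, Ifitm1 and Ifitm3 at 80.0%, Ifitm1 and Ifitm2 at 78.0%, and Ifitm6 and each of the others at 62.8% to 65.9%. A stretch of 90 coding bases of each gene is printed because reads can be told apart only where the bases differ. Over this stretch Ifitm3 and each other member are more alike than over their whole coding sequences. The stretch therefore understates how far these copies differ. The 31 positions at which the 4 genes are not all alike are in capitals, and the other 59 are the same in all 4.
Ifitm2 (chr7:140955084-140955173, minus strand): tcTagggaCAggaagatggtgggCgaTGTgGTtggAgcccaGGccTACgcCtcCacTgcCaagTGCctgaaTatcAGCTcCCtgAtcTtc
Ifitm1 (chr7:140969489-140969578, plus strand): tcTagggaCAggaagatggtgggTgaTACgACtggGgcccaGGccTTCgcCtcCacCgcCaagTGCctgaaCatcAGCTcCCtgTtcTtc
Ifitm3 (chr7:141009800-141009889, minus strand): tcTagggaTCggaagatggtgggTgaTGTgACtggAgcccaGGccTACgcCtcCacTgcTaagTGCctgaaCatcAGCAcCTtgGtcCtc
Ifitm6 (chr7:141016070-141016159, minus strand): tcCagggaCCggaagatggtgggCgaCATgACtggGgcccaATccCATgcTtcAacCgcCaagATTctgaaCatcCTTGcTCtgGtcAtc
Over this stretch Ifitm2 differed from Ifitm3 at 11 positions, Ifitm1 from Ifitm3 at 12 and Ifitm6 from Ifitm3 at 24.

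The members could be separated from each other better than from some of the other copies in the genome. Of the 606 runs of 50 bases in the Ifitm2 exons, 20 also occurred in Ifitm3, and at a length of 100 bases no run was shared between members. However, 48.5% of the 50-base runs of Ifitm2 occurred in some other gene, against 10.02% for Ifitm3, 5.02% for Ifitm1 and 0 for Ifitm6. Most of those of Ifitm2 belonged to Gm45717, a gene model that covers 268 of its 655 exonic bases and had 0 counts in all 12 libraries. The 7 genes that shared runs and are not members held 412 counts in all 12 libraries together. How reads that match several genes were counted is not given in the sources used here, so the level of Ifitm2 carries that uncertainty.

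Interferon reaches its target genes through STAT and IRF factors that bind an interferon-stimulated response element (ISRE) or a gamma-activated site (GAS). The reference sequence around the RefSeq start sites (GRCm38.p6, 250 bases before to 50 after, all 4 members matched) was searched on both strands for an ISRE core, GAAANNGAAA, which 3.44% of 32851 windows held, and a GAS, TTCNNNGAA, which 8.30% held. Ifitm2 had 1 ISRE core and Ifitm3 had 2, with a GAS that overlaps the second of them. Ifitm6 had a GAS and no ISRE core, and neither motif was found in the window of Ifitm1. The windows of Ifitm6 and Ifitm1 lie inside their GENCODE gene spans. The sequence before the outermost annotated start of these genes was not searched. A GATA motif, AGATAA or TGATAA, which 18.6% of windows held, was found for Ifitm3 alone among the 4. The 200 bases before the annotated exon of Ifitm2 and of Ifitm3 are shown, with motif letters in capitals. These 2 genes had the most similar pattern over all 12 libraries, though not within spleen.
Ifitm2 (chr7:140955988-140956187, minus strand): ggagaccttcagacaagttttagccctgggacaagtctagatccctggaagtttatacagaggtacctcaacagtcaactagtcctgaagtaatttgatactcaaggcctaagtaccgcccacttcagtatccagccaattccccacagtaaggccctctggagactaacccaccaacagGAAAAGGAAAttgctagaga
Ifitm3 (chr7:141010771-141010970, minus strand): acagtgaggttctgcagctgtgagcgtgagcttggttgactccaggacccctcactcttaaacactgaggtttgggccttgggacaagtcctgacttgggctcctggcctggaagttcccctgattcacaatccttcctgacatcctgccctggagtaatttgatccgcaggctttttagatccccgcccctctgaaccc
Ifitm3, first exon (chr7:141010716-141010742, minus strand): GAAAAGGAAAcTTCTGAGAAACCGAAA
The match of Ifitm2 begins 46 bases before its RefSeq start site, and those of Ifitm3 lie within its first exon. The GAS of Ifitm6 lies in an annotated exon too. A match of letters is a description of the reference and not a bound site.

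The libraries had 7756762 to 27386184 counts. Values are given as CPM, counts scaled to the library total and TMM factors, in which 3 counts correspond to 0.105 to 0.405 CPM. All 4 members passed the filter on low counts that kept 20263 genes. MK and platelet genes, among them Pf4, Itga2b and Gp1bb, marked the sort in every library, with at most 1 of 14 at 0. However, their summed level was 11952 to 48826 CPM in BM and 1236 to 3594 CPM in spleen. The 10 B cell markers summed to 62.7 to 292 CPM in BM and 3051 to 10232 CPM in spleen, and the 8 plasma cell markers to 1485 to 4697 CPM in BM, 46743 to 80835 CPM in spleen saline and 7761 to 35669 CPM in spleen sepsis. In these pooled libraries a smaller share of a cell type and less RNA per cell cannot be told apart.

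Ifitm2 and Ifitm3 were highest in BM. Ifitm2 was at 273, 377 and 393 CPM in the 3 BM saline libraries and at 376, 156 and 354 CPM in BM sepsis. In spleen it was at 35.0, 37.5 and 66.7 CPM after saline and at 5.81, 3.14 and 8.54 CPM after sepsis. The order of its group means was BM saline (348 ± 65.4 CPM, SD, n = 3), BM sepsis (295 ± 121), spleen saline (46.4 ± 17.6) and spleen sepsis (5.83 ± 2.7). The BM groups overlapped, and every other pair of neighbours in this order was separate. The fitted difference of BM over spleen was 2.90 (log2, SE 0.58) after saline, or 7.49-fold, and 5.66 (SE 0.66) after sepsis, or 50.7-fold.

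Ifitm3 followed the same order at a higher level. It was at 1008, 1270 and 1893 CPM in BM saline and at 1732, 680.0 and 1597 CPM in BM sepsis. In spleen it was at 52.7, 315 and 585 CPM after saline and at 68.6, 91.3 and 90.3 CPM after sepsis. The means were 1390 ± 455 (SD, n = 3), 1337 ± 573, 318 ± 266 and 83.4 ± 12.8 CPM, and both the BM groups and the spleen groups overlapped. The spleen saline library with 52.7 CPM was below all 3 spleen sepsis libraries. BM exceeded spleen by 2.13 (log2, SE 0.65) after saline and by 4.0 (SE 0.70) after sepsis. For Ifitm2 and Ifitm3 each of the 6 BM libraries was above each of the 6 spleen libraries, as it was for 2.56% of all genes tested.

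Ifitm1 was highest in spleen saline and lowest in spleen sepsis. It was at 588, 1237 and 583 CPM in BM saline, at 318, 251 and 775 CPM in BM sepsis, and at 1981, 1284 and 1024 CPM in spleen saline. In spleen sepsis it was at 9.66, 4.59 and 103 CPM, below every library of the other 3 groups. The order of the means was spleen saline (1430 ± 494 CPM, SD, n = 3), BM saline (803 ± 376), BM sepsis (448 ± 285) and spleen sepsis (39.0 ± 55.3), in which the first 3 overlapped from neighbour to neighbour. BM differed from spleen by -0.83 (log2, SE 0.80) after saline, with overlapping libraries, and by 3.52 (SE 0.88) after sepsis, with none overlapping.

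Ifitm6 was spread widely between libraries of 1 group. It was at 0.344, 10.8 and 2.91 CPM in BM saline and at 7.63, 45.1 and 111 CPM in BM sepsis. In spleen it was at 352, 56.2 and 53.5 CPM after saline and at 149, 0.112 and 0.388 CPM after sepsis, where the last 2 values rest on 1 and 4 counts and the first on 2900. Its means were 154 ± 171 CPM (SD, n = 3) in spleen saline, 54.6 ± 52.3 in BM sepsis, 49.9 ± 85.9 in spleen sepsis and 4.70 ± 5.47 in BM saline, and each neighbouring pair in this order overlapped. The 2 saline groups did not overlap with each other, with a difference of BM over spleen of -5.03 (log2, SE 1.80), which was -3.40 without spleen saline replicate 1, the library with 352 CPM, and -6.48 without BM saline replicate 2. After sepsis the difference was 0.13 (SE 1.51).

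Between the tissues, then, 3 members did not overlap after saline, of which Ifitm2 and Ifitm3 were higher in BM, as 11.3% of all genes were, and Ifitm6 was lower, as 7.0% were. After sepsis Ifitm1, Ifitm2 and Ifitm3 were separate and higher in BM, as 11.0% of all genes were. The family was picked from this contrast, and nothing is read from these counts.

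**Figure D1:**
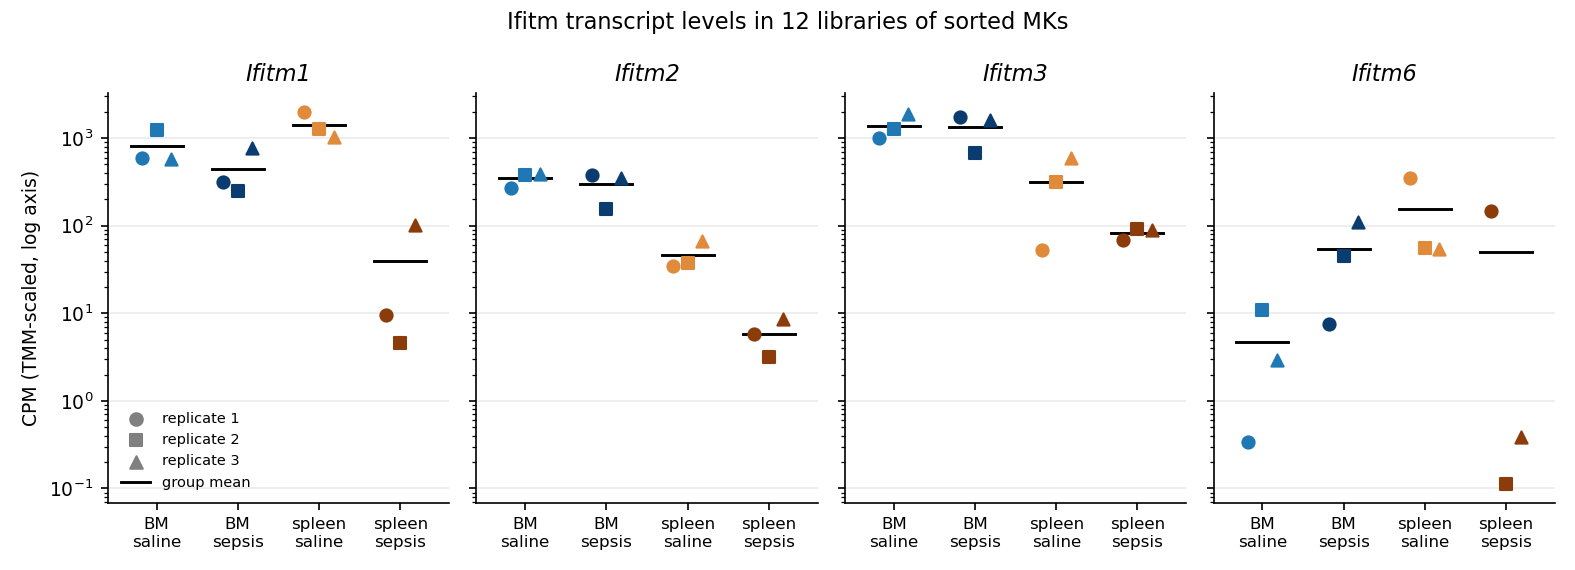
CPM of the 4 Ifitm genes in each library (log axis), with 1 panel per gene, 1 symbol per replicate, color by group and a black line at the group mean. Ifitm2 and Ifitm3 lie higher in all BM libraries than in all spleen libraries, Ifitm1 is lowest in the 3 spleen sepsis libraries (4.59 to 103 CPM), and Ifitm6 spans 0.112 to 149 CPM within spleen sepsis.

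Counted per kilobase (kb) of exon, so that genes can be compared, the BM family was mostly Ifitm3. Ifitm3 made up 52.1% to 74.5% of the summed CPM per kb of the 4 members in the 6 BM libraries, Ifitm1 8.48% to 31.5%, and Ifitm2 14.5% to 17.1%. The share of Ifitm2 thus stayed within a narrow range in BM while its level ran from 156 to 393 CPM. In spleen saline the largest part was Ifitm1, at 77.7%, 66.8% and 47.8%, and Ifitm2 held 2.29% to 5.20%. Per kb, Ifitm3 exceeded Ifitm2 by 3.25 to 4.65 times in BM, 1.45 to 8.47 times in spleen saline and 10.2 to 28.1 times in spleen sepsis. The per-kb values of Ifitm2 use all 655 of its exonic bases, of which 268 overlap Gm45717. If reads there were not counted, the values of Ifitm2 are too low.

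The spleen sepsis libraries held the least of the family and did not resemble each other in its make-up. The summed level was 284, 144 and 241 CPM per kb there, against 1758 to 2330 in spleen saline and 1521 to 3929 in BM. Replicate 1 was 58.1% Ifitm6, replicate 2 was 93.7% Ifitm3, and replicate 3 was 55.3% Ifitm3 and 39.1% Ifitm1. The 4 members took 0.0076% to 0.0208% of all counts in spleen sepsis and 0.140% to 0.344% in BM saline and spleen saline. Among the 20263 genes tested, ranked by mean CPM per kb, Ifitm3 was 17th in BM saline, 21st in BM sepsis, 173rd in spleen saline and 584th in spleen sepsis.

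**Figure D2:**
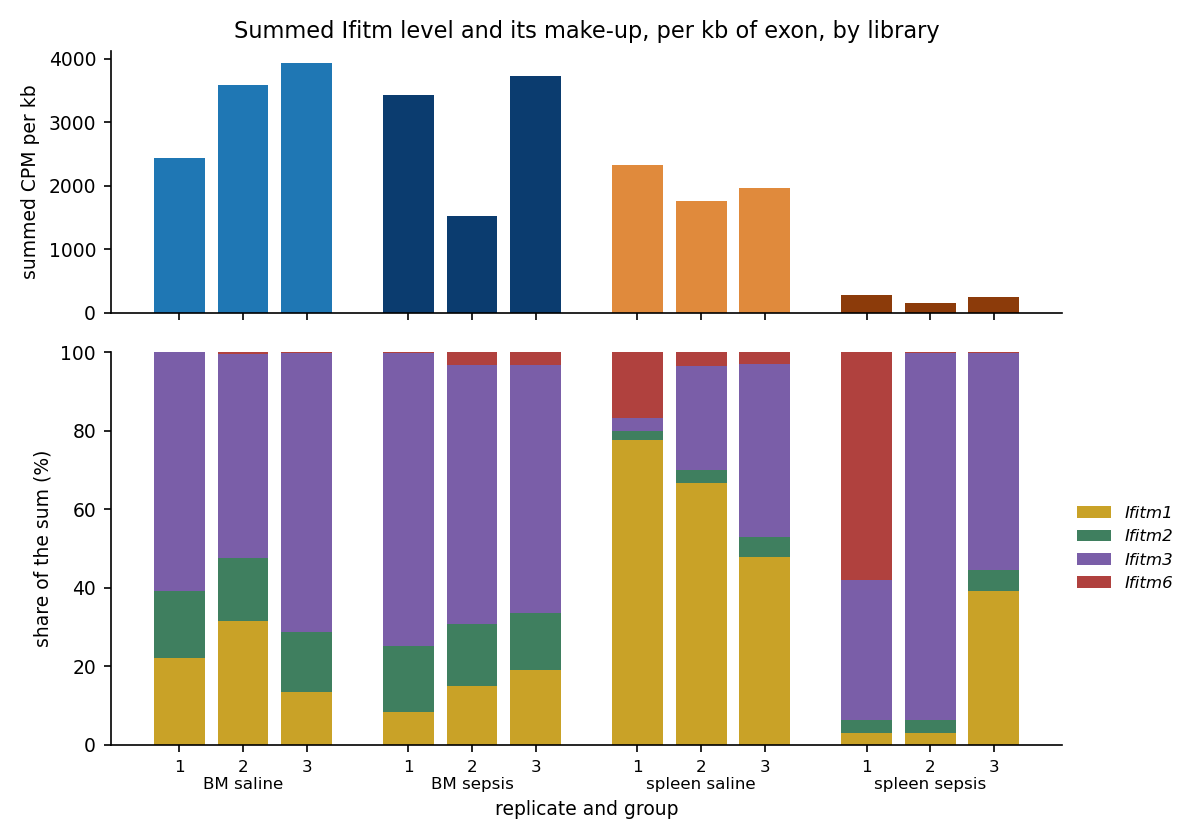
Summed CPM per kb of exon of the 4 Ifitm genes in each library (bars, upper panel) and the percent of that sum held by each gene (stacked bars, lower panel), with replicates 1 to 3 of each group side by side. Ifitm3 is the largest part in BM, Ifitm1 in spleen saline, and the 3 spleen sepsis libraries, with sums of 144 to 284, differ in make-up.

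The question of the sepsis comparison is how MKs of each tissue differ 5 days after cecal slurry from those after saline. In spleen, Ifitm1 and Ifitm2 fell with sepsis. Ifitm1 fell by 5.19 on the log2 scale (SE 0.95, 95% interval -7.18 to -3.21, edgeR quasi-likelihood test, adjusted p = 0.0307), from a mean of 1430 to 39.0 CPM, or 36.6-fold. Ifitm2 fell by 2.99 (SE 0.59, 95% interval -4.22 to -1.77, adjusted p = 0.0450 by edgeR), from 46.4 to 5.83 CPM, or 7.96-fold. For both genes all 3 sepsis libraries were below all 3 saline libraries, as for 4.51% of all genes tested. The 2 members called stand beside 32 genes called in all, or 0.158% of those tested, of which 20 were lower after sepsis (0.0987%), and they ranked 17th and 27th by p among 20263. The test of Ifitm2 uses spleen libraries that are also part of the contrast between tissues from which the family was picked. Its call is thus not independent of that choice.

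Ifitm3 and Ifitm6 did not pass the test in spleen. The difference of Ifitm3 was -1.93 (log2, SE 0.64, 95% interval -3.27 to -0.59, adjusted p = 0.361 by edgeR), with overlapping libraries, and was -1.09 without spleen saline replicate 3, the library with 585 CPM. That of Ifitm6 was -1.62 (SE 1.55, 95% interval -4.87 to 1.62, adjusted p = 0.756 by edgeR). The value for Ifitm6 turned on single libraries. Without the spleen saline library with 352 CPM the difference was -0.0014 with an adjusted p of 1.0 by edgeR, and without the spleen sepsis library with 149 CPM it was -9.19 with an adjusted p of 0.00586. It was -0.95 without spleen sepsis replicate 2 and -1.01 without replicate 3. When Ifitm2 and Ifitm3 were summed into 1 feature, the difference was -2.03 (SE 0.60, adjusted p = 0.285 by edgeR).

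The calls of Ifitm1 and Ifitm2 depended on the tool. DESeq2 called Ifitm1, Ifitm2 and Ifitm3 lower in spleen (with 4.87% of genes called in all), and limma-voom called no member and no gene. Without each library in turn, Ifitm1 passed in 12 of 12 fits and its difference was -7.60 without spleen sepsis replicate 3, the library with 103 CPM. These 12 fits kept more genes than the main fit and called 48 to 138 genes in all, against 32. Ifitm2 passed in 9 of 12 fits and did not pass without spleen saline replicate 3 (adjusted p = 0.0545 by edgeR), spleen sepsis replicate 1 (0.103) or spleen sepsis replicate 2 (0.184).

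In BM no member passed the test for sepsis. The differences were -0.84 (log2, SE 0.80, 95% interval -2.51 to 0.83) for Ifitm1, -0.24 (SE 0.54, -1.37 to 0.89) for Ifitm2, -0.06 (SE 0.62, -1.35 to 1.24) for Ifitm3 and 3.54 (SE 1.68, 0.02 to 7.06) for Ifitm6, each with an adjusted p of 1.0 by edgeR. All 4 had overlapping libraries. Without BM sepsis replicate 3 the difference was -1.49 for Ifitm1 and 2.49 for Ifitm6, and without BM saline replicate 2 it was -0.35 and 5.10. No gene at all was called by edgeR or limma-voom in this comparison, and DESeq2 called 206, none of them a member. At an unadjusted p under 0.05 edgeR had 717 genes (3.54%), Ifitm6 among them.

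The test of the difference between the tissues in the response to sepsis did not pass for any member. This difference equals BM over spleen after saline minus BM over spleen after sepsis. The family was picked from Ifitm2 between the tissues, so the test reuses the values behind that choice. Nothing is concluded from it for the members. The sepsis effect in spleen minus that in BM was -4.35 (log2, SE 1.17, adjusted p = 0.508 by edgeR) for Ifitm1 and -2.75 (SE 0.78, adjusted p = 0.543) for Ifitm2. It was -1.87 (SE 0.88, adjusted p = 0.642 by edgeR) for Ifitm3 and -5.16 (SE 2.28, adjusted p = 0.628) for Ifitm6. All 4 were negative and at an unadjusted p under 0.05, as were 1556 genes (7.68%, either sign). No gene was called by edgeR or limma-voom, and DESeq2 called 495 (2.44%), among them Ifitm1 (adjusted p = 0.0188) and Ifitm2 (adjusted p = 0.0160). Ifitm1 also passed in edgeR without spleen sepsis replicate 3 (-6.78, adjusted p = 0.000101), where 42 of 25900 genes were called (0.162%). It passed without BM sepsis replicate 1 as well (-4.56, adjusted p = 0.0422 by edgeR), with 39 of 25337 called (0.154%). Ifitm6 passed without spleen sepsis replicate 1 (-12.72, adjusted p = 0.00107 by edgeR), with 26 of 25324 called (0.103%). These fits kept more genes than the 20263 of the main fit, in which none was called.

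Averaged over the tissues, the sepsis differences were -3.02 (log2, SE 0.61, adjusted p = 0.0804 by edgeR) for Ifitm1, -1.61 (SE 0.39, adjusted p = 0.194) for Ifitm2, -0.99 (SE 0.44, adjusted p = 0.464) for Ifitm3 and 0.96 (SE 1.08, adjusted p = 0.803) for Ifitm6. No member was among the 14 genes called (0.0691%). Ifitm1 passed in each of the 12 fits without 1 library, with adjusted p of 1.92e-06 to 0.0253 by edgeR. Those fits kept more genes than the main fit and called 31 to 83 genes in all. With all 12 libraries Ifitm1 passed without a filter, with DESeq2 and with the replicate block. It did not pass with RLE scaling (adjusted p = 0.0748 by edgeR), library size alone (0.115), the stricter filter (0.134) or limma-voom (adjusted p = 0.187).

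**Figure D3:**
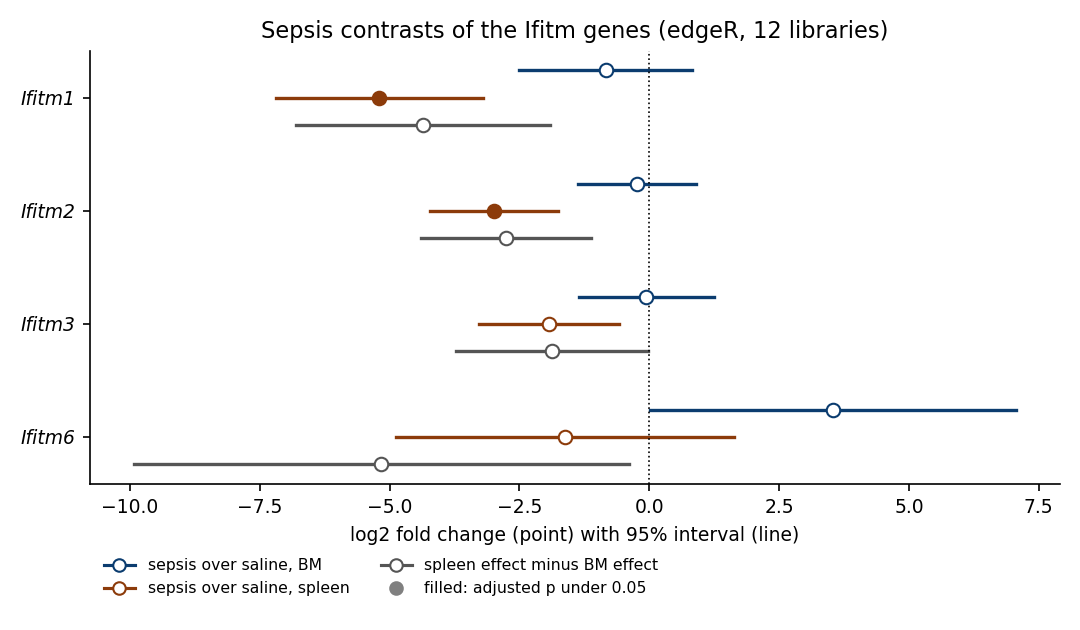
Log2 fold change of each Ifitm gene after sepsis in BM, after sepsis in spleen, and the spleen effect minus the BM effect, from 1 edgeR fit of 12 libraries, with 95% intervals as lines and filled points where the adjusted p was under 0.05. The filled points are Ifitm1 (-5.19) and Ifitm2 (-2.99) in spleen, and in BM the intervals of Ifitm1, Ifitm2 and Ifitm3 include 0 while that of Ifitm6 starts at 0.02.

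By edgeR, no listed gene of the interferon pathway or IFITM partners was called after sepsis. Of 73 genes of ligands, receptors, signaling, effectors and IFITM partners, 62 were tested. The count called was 0 in spleen, beside 0.158% of all genes, and 0 in BM, where no gene at all was called. With so few calls over all genes, a count of 0 is no result about these lists. DESeq2 called 5 in spleen (beside 4.87% of all genes) and 1 in BM (beside 1.02%), and limma-voom called 0 in spleen. Of the 10 ligands only Ifng, the type II interferon, passed the filter, with means of 5.21 CPM in spleen saline, 3.48 in spleen sepsis and 0 in both BM groups. The 5 receptor subunits tested had a median sepsis difference in spleen of 0.20 (log2), and the 15 kinases, STATs, IRFs and inhibitors had -0.16, against -0.08 over all genes. Among the latter, Irf9, the DNA-binding part of the factor that binds the ISRE, had means of 11.3 and 73.3 CPM (log2 difference 2.7, SE 1.02, adjusted p = 0.382 by edgeR). Jak2, a kinase downstream of interferon receptors, had 157 and 37.9 CPM (-2.05, SE 0.56, adjusted p = 0.230 by edgeR). The 27 other effectors tested, such as Mx1, Oas2 and Rsad2, had a median of -1.09, with 10 positive and none called.

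Between the tissues, 4 of the 62 genes were called after saline (beside 1.25% of all genes, and 0.725% called lower) and the same 4 after sepsis (beside 1.78%, and 1.18% lower), all lower in BM. Among them were Irf8, a factor of myeloid and B cells, Samhd1, a nucleotide hydrolase that limits retroviruses, and Cr2, a complement receptor of B cells. BM differed from spleen after saline by -3.93 (log2, SE 0.87, adjusted p = 0.0294 by edgeR) for Irf8 and by -3.48 (SE 0.62, adjusted p = 0.00658) for Samhd1. The value was -4.60 (SE 0.80, adjusted p = 0.00520 by edgeR) for Cr2, which is also on the list of B cell markers, whose sums are given above. In the average over the treatments the 62 genes had 4 called lower and 1 called higher in BM, beside 4.75% of all genes called and 2.07% called higher. The gene called higher was Nedd4, whose product adds ubiquitin to IFITM3, with a difference of 1.38 (log2, SE 0.37, adjusted p = 0.0327 by edgeR). It had means of 386 and 282 CPM in BM and 213 and 75.2 CPM in spleen, after saline and sepsis, and Zdhhc20, which attaches palmitate to it, had 94.97, 81.5, 155 and 111 CPM.

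The neighboring genes and the remaining family members stayed low. Of the 4 protein-coding genes on each side of the cluster, Psmd13, Nlrp6, Pgghg, B4galnt4, Pkp3 and Sigirr were tested, and none was called between the tissues or after sepsis. Their group means were at most 52.1 CPM. Ifitm5, which is known from bone, Ifitm7 and Ifitm10 had group means of at most 12.1 CPM, and none was called in these comparisons. Ifitm10 was at 0 in 5 of the 6 BM libraries.

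Genes whose log2 CPM was most like each member over the 12 libraries are given by Pearson's r, as a description, since the 12 values share 4 groups and the highest of 20263 genes are listed. Ifitm2 was most like Nfe2 (r = 0.963), Tal1 (0.953) and Gata1 (0.949), which encode transcription factors of the MK and erythroid lineages. Gata1 had means of 55.7, 50.2, 11.8 and 3.03 CPM in BM (saline, then sepsis) and spleen (saline, then sepsis), the same order as Ifitm2. Ifitm3 was most like Dok2, an adaptor protein (r = 0.968), Tbxas1, which makes thromboxane (0.966), and Pdzk1ip1, a small membrane protein (0.963). Tbxas1 had means of 57.8, 63.1, 4.42 and 0.890 CPM. Between the members, r over all 12 libraries was 0.918 for Ifitm2 and Ifitm3 and at most 0.719 for the other pairs. This value includes the gap between the tissues from which the family was picked. Within the 6 BM libraries r was 0.932 for Ifitm2 and Ifitm3 and 0.617 for Ifitm1 and Ifitm2. Within the 6 spleen libraries the order was reversed, at 0.631 and 0.949.

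Ifitm1 and Ifitm6 had other companions. Ifitm1 was most like Ier3, an early response gene (r = 0.979), Csf2rb2, the mouse beta chain of the IL-3 receptor (0.978), and Csrp3, a LIM domain gene (0.971). Csf2rb2 had means of 54.7, 31.9, 78.4 and 3.91 CPM in BM and spleen, each after saline and then sepsis. Ifitm6 was most like Pilra, an inhibitory receptor of myeloid cells (r = 0.942), and the neutrophil genes Ngp (0.914) and S100a9 (0.894). S100a9, a subunit of calprotectin, had means of 21.5, 2099, 2209.5 and 948 CPM in that order.

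Summed markers of other cells moved with some members. In spleen the 10 basophil and mast cell markers, such as Mcpt8 and Cpa3, summed to 9229, 6548 and 3710 CPM after saline and to 103, 54.6 and 812 CPM after sepsis, and none of the 10 was at 0 in any library. Their order over these 6 libraries was that of Ifitm1, in which spleen sepsis replicate 3 was also the highest of its group and replicate 2 the lowest. Of the 10, Ccl3, Cpa3, Il4 and Ms4a2 were called lower after sepsis in spleen by edgeR, beside 0.0987% of all genes. In BM the same markers summed to 5836 to 31379 CPM after saline and to 2977 to 7118 CPM after sepsis. None was called there, where edgeR called no gene at all. The sums of the 8 plasma cell markers in spleen did not overlap either, at 80835, 51422 and 46743 CPM after saline and 35669, 30902 and 7761 CPM after sepsis. None of the 8 was called, beside 0.158% of all genes, and 6 had a positive sepsis difference. Spleen sepsis replicate 3, the highest of its group for Ifitm1, had the lowest sum. The part of basophils, mast cells and plasma cells in the difference of Ifitm1 and Ifitm2 was not tested.

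The 13 neutrophil markers moved with Ifitm6 in some libraries and not in others. They summed to 10425, 67.6 and 277 CPM in spleen sepsis and to 2662, 11808 and 19265 CPM in BM sepsis, with the highest Ifitm6 in the highest of each. In spleen saline they summed to 21273, 527 and 341 CPM, and Ifitm6 was at 56.2 and 53.5 CPM in the libraries with 527 and 341, above the 0.344 to 10.8 CPM of BM saline, where the sum was 148 to 353. The 12 monocyte and macrophage markers summed to 1628 to 2851 CPM in spleen saline, 405 to 975.0 in spleen sepsis, 395 to 1151 in BM saline and 869.7 to 2027 in BM sepsis. The MK and platelet markers did not separate the spleen groups, at 1441 to 3594 CPM after saline and 1236 to 2372 CPM after sepsis. None of their 14 genes was called after sepsis in either tissue, beside 0.158% of all genes in spleen and 0 in BM. Between the tissues all 14 had a positive difference of BM over spleen, where the median over all genes was -0.28 after saline and -0.18 after sepsis. After saline 4 were called higher (Itgb3, Pf4, Treml1 and Vwf), beside 0.523% of all genes. After sepsis 3 were, Pf4 and Ppbp among them, beside 0.597%. The monocyte sums of the spleen groups did not overlap, and neither did the levels of Ifitm1 and Ifitm2 there. The part of monocytes in the values of Ifitm1, Ifitm2 and Ifitm6, of neutrophils in those of Ifitm6, and of the MK share of a library in those of Ifitm2 and Ifitm3, was not tested.

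**Figure D4:**
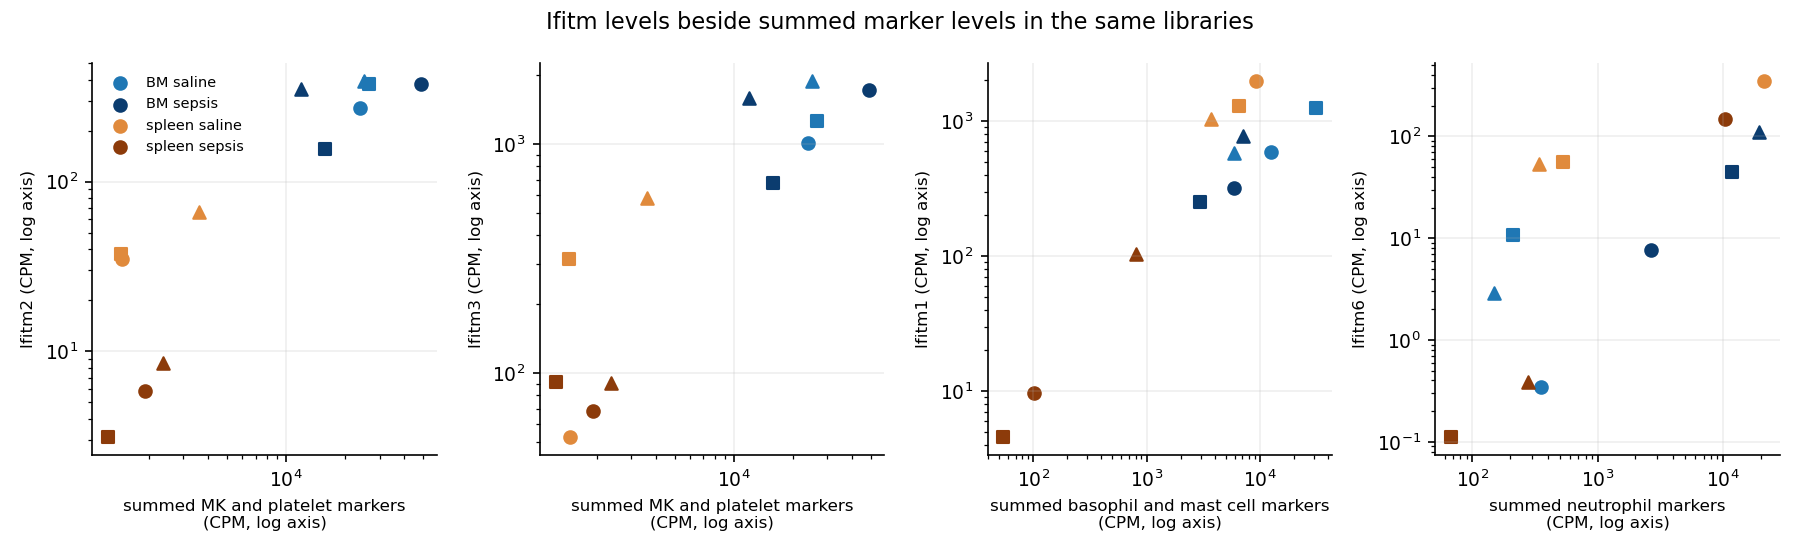
Level of a member (CPM, log axis) against the summed CPM of marker genes (log axis) in the same library, for Ifitm2 and Ifitm3 beside 14 MK and platelet markers, Ifitm1 beside 10 basophil and mast cell markers, and Ifitm6 beside 13 neutrophil markers, with color by group and symbols for replicates. The spleen sepsis libraries are lowest for Ifitm1 and for the basophil sum (54.6 to 812 CPM), and for Ifitm6 the spleen sepsis library at 149 CPM has the highest neutrophil sum of its group (10425 CPM).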

How the data were processed

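The authors sorted 300 MKs per library, amplified their cDNA (SMART-Seq HT, then Nextera XT) and deposited 1 table of raw counts, whole reads per Ensembl gene that were not normalized. The submitters' processing notes name STAR 2.7.2b, R 3.6.1, DESeq2 1.26 and GRCm38. Annotation, counting options and strand were not given in the sources used here. All 55536 identifiers were found in GENCODE M21, which gave positions and exon lengths.

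The main test was that of edgeR 4.0.16 in R 4.3.3 (filterByExpr, minimum count 10, 20263 genes, TMM, 1 mean for each of 4 groups, quasi-likelihood F test, residual df 8, prior df 11.1). A gene was called at a p under 0.05 after Benjamini-Hochberg adjustment over all genes tested, and the SE is the log2 fold change divided by the square root of F. The biological coefficient of variation was 143%, and depth was 7756762 to 27386184 counts. Limits from counts cover counting error only. Sequences came from RefSeq (GRCm38.p6) and GENCODE transcripts, aligned with Biopython 1.88. The fit was tested on simulated data. DESeq2 1.42.0, limma-voom (limma 3.58.1) with quality weights, 2 scalings, 2 filters, a replicate block, 6-library fits, Ifitm2 and Ifitm3 summed, and each library left out were tried. The genes named are the members, other Ifitm genes, the 4 protein-coding genes on each side, the 3 genes most like each member (immunoglobulin and T cell receptor segments left out) and genes of the fixed lists. List genes given with values although they were not called were picked after their values were seen. The members and lists were chosen with earlier results of these data known. Some genes of the lists are counted but not reported here by name.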

Additional observations from a re-analysis of the deposited data

How the results depend on the processing

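All 4 members kept their direction in spleen after sepsis under all alternatives (adjusted p between 6.16e-16 and 0.451 for Ifitm1, 3.13e-06 and 0.768 for Ifitm2). The count of members called there was 1 with a filter of 10 counts in at least 6 libraries (Ifitm1 -5.24, adjusted p = 0.0565), 1 with Ifitm2 and Ifitm3 summed, 0 with limma-voom (Ifitm1 -7.06, Ifitm2 -3.23) and 0 with only the 6 spleen libraries (Ifitm1 -5.24, Ifitm2 -3.05), while Ifitm3 passed without a filter (-1.90) and with DESeq2 (-2.08). Without 1 library it was 1 to 2, with Ifitm2 at -3.33 to -2.61, Ifitm3 at -2.38 to -1.09 and Ifitm6 at -9.19 to -0.0014. For the average over tissues the count was 1 without a filter (Ifitm1 -2.98), 2 with DESeq2 (Ifitm1 -3.10, Ifitm2 -1.72) and 1.0 without any 1 library (Ifitm1 -4.21 to -2.75), Ifitm6 was -0.51 with limma-voom and -2.82 to 1.78 without 1 library, and Ifitm3 -1.21 to -0.57 without 1 library. For the difference between tissues it was 2 without a filter (Ifitm1 -4.37, Ifitm6 -5.13), 2 with DESeq2 (Ifitm1 -4.37, Ifitm2 -2.83) and 0 to 1 without 1 library (Ifitm1 -6.78 to -3.70, Ifitm3 -2.34 to -1.05, Ifitm6 -12.72 to -3.54). In BM, Ifitm3 was 0.0232 with limma-voom and -0.27 to 0.28 without 1 library, and, without 1 library, Ifitm2 was -0.43 to 0.0890, Ifitm1 -1.49 to -0.35 and Ifitm6 2.49 to 5.10. BM over spleen after saline ranged without 1 library from -1.19 to -0.38 for Ifitm1 and from -6.48 to -3.40 for Ifitm6. BM over spleen after sepsis ranged without 1 library from 2.90 to 5.99 for Ifitm1 and from -0.92 to 7.80 for Ifitm6. Of the 73 listed genes, DESeq2 called 10 between tissues after sepsis, 5 after sepsis in spleen, 1 in BM and 1 for the difference. Over all genes it called 7.26%, 4.87%, 1.02% and 2.44% in that order. Without 1 library, edgeR called 2 to 4 of the listed genes between tissues after sepsis and 0 to 1 after sepsis in spleen. Over all genes, the 14 called in the average were 171 without a filter, 676 with DESeq2, 1 with limma-voom and 31 to 83 without 1 library, and the 32 called in spleen were 187 without a filter, 986 with DESeq2, 20 with the stricter one and 48 to 138 without 1 library, where filterByExpr also kept more genes, and without a filter 81 were called in BM and 130 for the difference. The causes of these changes were not tested. RLE scaling moved the median of all genes by -0.26 and library size alone by 0.49 (BM over spleen after saline), and neither changed a direction of a member in any comparison.

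Whether libraries with the same replicate number were paired is not given in the sources used here. Correlations of the deviations of 18 same-numbered pairs were -0.0566 to 0.0447. Differently numbered pairs were not compared, so these values cannot exclude pairing. With the replicate block, 33 genes and the same 2 members were called in spleen (Ifitm1 -6.02, Ifitm2 -3.03), Ifitm1 passed in the average (-3.62, 1 member called) and Ifitm3 in BM was 0.0405.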

Other observations

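Markers of the remaining cell types were summed in the same libraries, as values with no test. The 9 T cell markers summed to 8.51 to 94.8 CPM in BM, 143 to 1814 CPM in spleen saline and 149 to 487 CPM in spleen sepsis. The 10 stem and progenitor markers summed to 213 to 341 CPM in BM, 700 to 1636 CPM in spleen saline and 1219 to 2631 CPM in spleen sepsis, with overlapping spleen groups. The 9 erythroid markers summed to 133 to 481 CPM in BM, 23.0 to 647 CPM in spleen saline and 75.4 to 156 CPM in spleen sepsis.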
